A study of Mus musculus with 231 samples.

Results

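The miR-29 family is described here by the 5 mature miRNAs measured under its names in blood mononuclear cells of mice, mmu-miR-29a-3p, mmu-miR-29b-3p, mmu-miR-29c-3p, mmu-miR-29a-5p and mmu-miR-29c-5p (below without the mouse prefix mmu). They were taken by name, and all 5 were found among the 1863 miRNAs of the training count table, the 1895 miRNAs of the training counts-per-million (CPM) table and the 1817 miRNAs of the validation CPM table. The training mice were 7 CM and 7 Ctrl animals, with 53 and 76 libraries taken at month 0, before induction, and about monthly from then on. CM mice were conditional knock-ins of the leukaemogenic fusion gene Cbfb-MYH11 (Cbfb56M/+, with an Mx1-Cre that poly(I:C) switches on in interferon-responsive cells, blood-forming cells among them), labelled with the genotype code CHW. Ctrl mice were littermates of matching age that the labels describe as having no transgene, with the codes CW (4 mice), HW (2) and WT (1), which are not explained. The methods list Cbfb56M/+ mice without the Cre among the controls, so a Ctrl mouse of code CW or HW may hold the uninduced allele. Both arms received 7 doses of poly(I:C) at 14 mg/kg when 6 to 8 weeks old. The validation mice, 10 CM and 6 Ctrl of the same model, gave 60 and 42 libraries.

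MiRNAs of the miR-29 family are cut from hairpin precursors as a 5p and a 3p strand, and one of these is usually retained to guide silencing. Which messages a guide strand silences is set mainly by its seed, the short stretch at its 5′ end. MiR-29 strands of the 3p arm are known to target collagens, DNA methyltransferases and the survival factor Mcl1. In some studies of acute myeloid leukaemia members of the family are regarded as restraining growth.

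The mature sequences are shown first because the measurements follow the arm and the locus a miRNA comes from. They are RefSeq entries of build GRCm38.p6, printed 5′ to 3′, and capitals mark the seed at bases 2 to 8.

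miR-29a-3p: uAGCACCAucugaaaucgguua
miR-29b-3p: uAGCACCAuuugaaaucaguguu
miR-29c-3p: uAGCACCAuuugaaaucgguua
miR-29a-5p: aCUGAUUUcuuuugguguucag
miR-29c-5p: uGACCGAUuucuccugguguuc

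The 3 strands of the 3p arm shared the seed AGCACCA, which no other name among 1679 mature mouse miRNAs of that table carried. Counted from 1 at the 5′ end, miR-29a-3p and miR-29c-3p differed by 1 base of 22, C10U. From miR-29a-3p to miR-29b-3p there were 4 differences over the same 22 bases, C10U, G18A, U21G and A22U. The 5p strands had seeds of their own, CUGAUUU in miR-29a-5p and GACCGAU in miR-29c-5p.

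The hairpins are shown because miR-29b-3p has 1 mature name but 2 loci. Capitals mark the mature arms within each hairpin.

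Mir29a: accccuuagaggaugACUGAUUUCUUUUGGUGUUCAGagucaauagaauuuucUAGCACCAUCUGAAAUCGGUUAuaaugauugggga
Mir29b-1: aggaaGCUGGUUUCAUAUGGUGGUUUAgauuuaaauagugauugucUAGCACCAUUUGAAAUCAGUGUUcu
Mir29b-2: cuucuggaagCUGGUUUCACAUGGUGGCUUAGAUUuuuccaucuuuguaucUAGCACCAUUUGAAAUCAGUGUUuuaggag
Mir29c: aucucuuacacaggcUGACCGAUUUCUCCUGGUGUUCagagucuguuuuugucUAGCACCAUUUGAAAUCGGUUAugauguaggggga

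Mir29a (chr6:31062660-31062747) and Mir29b-1 (chr6:31063023-31063093) lie on the minus strand with 275 bases between them, and no other RefSeq gene overlapped them. Mir29b-2 (chr1:195037040-195037120) and Mir29c (chr1:195037547-195037634) lie on the plus strand, 426 bases apart, inside the long non-coding RNA gene A330023F24Rik. The 3p strand of Mir29b-1 and that of Mir29b-2 are identical in sequence, so a read of miR-29b-3p cannot be assigned to either locus. Their 5p strands differ and were counted separately.

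The family was dominated by 1 strand. MiR-29a-3p averaged 25715 CPM over the training libraries (SD 6929, range 11050 to 46568), which made it the 13th most abundant miRNA and 2.56% of all counts. MiR-29b-3p averaged 299 CPM, miR-29c-3p 146 CPM, miR-29a-5p 59.4 CPM and miR-29c-5p 17.2 CPM. Among the 3p strands, miR-29a-3p thus made up 98.3% of the CPM, miR-29b-3p 1.14% and miR-29c-3p 0.558%. In the deposited CPM, where miR-29b-3p averaged 561 CPM, these shares were 97.1%, 2.18% and 0.683%. None of the 5 was at 0 in any training library, and the lowest count was 15, for miR-29c-5p. The other strands of the miR-29b hairpins were rarer, with 6 to 65 counts per library for miR-29b-1-5p and 2 to 36 for miR-29b-2-5p. The training libraries held 1.79281e+06 to 7.95841e+06 counts, so counting error weighs most on the 5p strands.

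The 2 training tables did not count these miRNAs alike. One holds raw counts and the other CPM made by a separate counting, whose values gave back whole reads. For miR-29a-3p the count was 1.09 to 1.15 times the reads behind the deposited CPM in every library. For miR-29c-3p it was 0.519 to 1.04 times, with a median of 0.893. MiR-29b-3p was far less even, from 0.0709 times in the CM mouse 3334 at month 1 (288 counts against 4063 reads) to 0.967 times in the CM mouse 3336 at month 0 (3325 against 3439). Across these libraries its CPM in the 2 tables correlated at r = 0.63 on the log2 scale, against 0.98 for both miR-29a-3p and miR-29c-3p, 0.84 for miR-29a-5p and 0.80 for miR-29c-5p, as a description of libraries that share their reads. The 5p strands had more counts than deposited reads, and their ratios were uneven too. That of miR-29a-5p ran from 1.37 to 4.78 (median 2.50) and that of miR-29c-5p from 1.05 to 11 (median 1.81).

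Among miRNAs with enough reads, unevenness of the kind seen for miR-29b-3p went with the number of loci. Of 176 miRNAs with at least 30 reads in every library of both tables, 15 had their mature sequence listed at 2 or more loci by RefSeq, and all 15 were among the 20 with the most uneven ratio. The median SD of the log2 ratio was 1.38 for these 15 and 0.0415 for the others, and miR-29b-3p, at 0.903, ranked 13th. MiR-29a-5p and miR-29c-5p fell short of that number of reads and were not among the 176. The ratio of miR-29b-3p had a median of 0.647 in the CM libraries of months 1 to 6 and 0.574 in the Ctrl libraries, with overlapping ranges. Over the same libraries the median ratio of miR-29c-5p was 2.60 in the CM arm and 1.77 in the Ctrl arm, that of miR-29a-5p 2.06 and 2.56, and that of miR-29c-3p 0.809 and 0.939, again with overlapping ranges, so the size of a CM difference in these 3 members depends on the table. The level of miR-29b-3p is given from both tables below. Whether the number of loci is the cause was not tested.

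**Figure D1:**
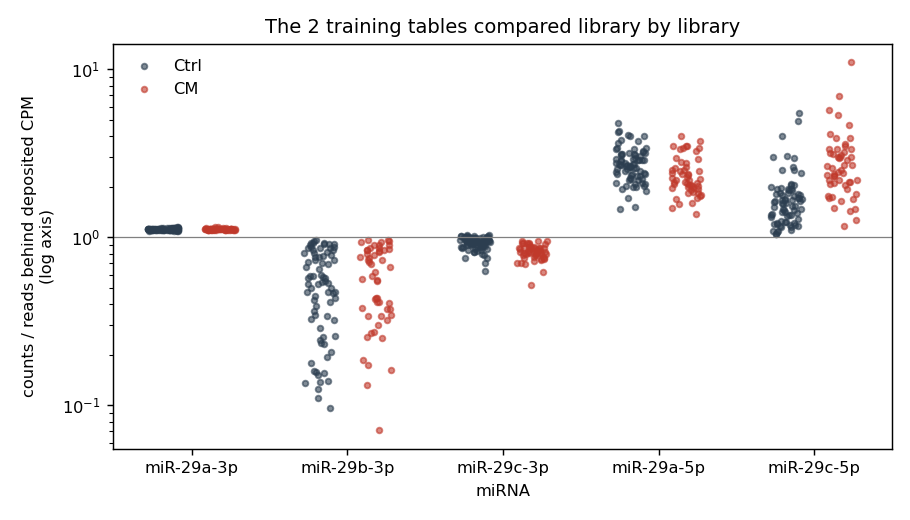
Counts divided by the reads behind the deposited CPM (log axis), 1 point per training library for each of the 5 miR-29 members, Ctrl in dark blue and CM in red. MiR-29a-3p forms a tight band at 1.09 to 1.15, whereas miR-29b-3p spreads from 0.0709 to 0.967.

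At month 0 none of the 5 members passed an adjusted p of 0.05 between CM and Ctrl mice (7 against 7) in edgeR's quasi-likelihood test, where 1 of 478 miRNAs tested did (0.209%). MiR-29a-5p nevertheless had a lower CM median before induction, at 36.7 to 76.4 CPM (median 59.7) against 49.4 to 98.9 CPM (median 85.2) in Ctrl mice, a log2 fold change of -0.42 (adjusted p = 0.324 by edgeR, unadjusted p = 0.0313). MiR-29a-3p ran the other way, 15655 to 31221 CPM in the CM arm against 15908 to 23531 CPM in the Ctrl arm, with a log2 fold change of 0.27 (adjusted p = 0.461 by edgeR). In the deposited CPM 6 of the 7 Ctrl mice lay above every CM mouse for miR-29a-5p. There 4 CM mice lay below every Ctrl mouse, and 1 above, for miR-29c-5p. Its log2 fold change on that scale was -0.60 (unadjusted p = 0.0384, adjusted 0.385 by limma).

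After induction 2 of the rarer strands were lower in CM mice, and the abundant miR-29a-3p did not pass the test at any month. MiR-29a-5p was lower in CM mice at months 1, 2 and 3, and miR-29c-5p at months 1 and 3. None of the 5 members passed the test at months 4, 5 or 6. In these months the whole table yielded 4, 0 and 0 calls (0.837%, 0.0% and 0.0%) by edgeR, with 16.9%, 21.6% and 6.98% of miRNAs below 0.05 before adjustment, and 4, 0 and 0 calls by limma on the deposited CPM. On reads recovered from the deposited CPM it yielded 2.11%, 0.0% and 0.0%, by DESeq2 4.81%, 4.16% and 0.0%, and with all training libraries in 1 edgeR fit 8.59%, 2.21% and 2.33%, and no member passed in these. The shares of all tested miRNAs called were 27.5% at month 1, 13.5% at month 2 and 22.0% at month 3, and those called lower in CM mice were 12.9%, 5.82% and 7.69%. Set against these shares, 2 of 5 members were called at month 1, 1 of 5 at month 2 and 2 of 5 at month 3, each lower.

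MiR-29a-5p, the strand opposite the abundant miR-29a-3p, ranged from 18.6 to 75.1 CPM (median 38.6) in the 7 CM mice at month 1 and from 42.7 to 121.2 CPM (median 89.6) in the 7 Ctrl mice. The groups overlapped, with 4 CM mice below every Ctrl mouse. The log2 fold change was -1.07 (SE 0.32, adjusted p = 0.0233 by edgeR). At month 2 the 6 CM mice lay at 35.7 to 69.5 CPM (median 43.8) and the 7 Ctrl mice at 59.4 to 123.02 CPM (median 72.5), 5 of the CM mice below every Ctrl mouse, and the log2 fold change was -0.81 (SE 0.21, adjusted p = 0.0226 by edgeR). At month 3 the CM range was 22.4 to 79.8 CPM (median 36.9) and the Ctrl range 59.9 to 96.2 CPM (median 80.9). All but 1 of the 7 CM mice then lay below every Ctrl mouse, and the log2 fold change was -0.99 (SE 0.24, adjusted p = 0.00945 by edgeR). From month 4 to month 6 the fold change stayed negative, at -0.40, -0.74 and -0.63, with adjusted p of 0.525, 0.209 and 0.499 by edgeR. With the G number of the labels, a code whose meaning is not given, as a covariate, the fold changes of months 1 to 3 were -0.84, -0.87 and -1.38 and none passed (adjusted p = 0.245, 0.226 and 0.290 by edgeR), in a fit that called 2.12%, 0.0% and 1.32% of all miRNAs. The call of month 1 was also lost without the CM mouse 3336 (-0.91), and that of month 2 without the CM mouse 3338 (-0.71), 3341 (-0.70), 3357 (-0.74) or 3368 (-0.79) and with all training libraries in 1 fit (-0.79, adjusted p = 0.0552 by edgeR, 6.26% of miRNAs called).

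MiR-29c-5p, the rarest member, was the one member whose arms did not overlap at a month from 0 to 6 in the counts. At month 3 it lay at 7.7 to 18.2 CPM (median 14.1) in CM mice and 21.4 to 26.4 CPM (median 22.6) in Ctrl mice, so that all 7 CM mice were below all 7 Ctrl mice, as were the CM mice for 3.52% of the miRNAs tested. The log2 fold change was -0.81 (SE 0.17, adjusted p = 0.00466 by edgeR). At month 3 the arms shared only the G number G3, so arm and G number cannot be told apart for most of these mice. At month 1 the ranges were 7.4 to 19.5 CPM (median 13.0) in CM and 17.0 to 32.1 CPM (median 20.7) in Ctrl mice, with 5 CM mice below every Ctrl mouse and a log2 fold change of -0.82 (SE 0.25, adjusted p = 0.0271 by edgeR). At month 2 they were 12.9 to 23.98 CPM and 22.7 to 31.5 CPM, and the log2 fold change of -0.54 did not pass (adjusted p = 0.0580 by edgeR). With the G number as a covariate the fold changes of months 1 and 3 were -0.56 and -1.56, neither past the test (adjusted p = 0.251 and 0.0816 by edgeR), where that fit called 2.12% and 1.32% of all miRNAs. The month 1 call was also lost with sex as a covariate (-0.77, adjusted p = 0.0558 by edgeR) and without any 1 of 6 mice (-0.81 to -0.68), the CM mice 3336, 3338, 3357 and 3368 and the Ctrl mice 3342 and 3350.

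The deposited CPM gave miR-29c-5p a larger difference. On that scale all CM mice lay below all Ctrl mice at month 2 (5.5 to 10.3 against 14.6 to 19.9 CPM) and at month 3 (2.6 to 8.2 against 13.4 to 16.6 CPM), as did the CM mice for 3.28% of 610 miRNAs at either month. On reads recovered from these values, edgeR gave log2 fold changes of -1.24, -1.11 and -1.51 for miR-29c-5p at months 1 to 3 (adjusted p = 0.00815, 0.00281 and 0.000174), where 31.4%, 22.2% and 27.8% of miRNAs were called. MiR-29a-5p passed on those reads at month 3 (log2 fold change -0.88, adjusted p = 0.0119 by edgeR) but not at month 1 (-0.62, adjusted p = 0.127) or month 2 (-0.56, adjusted p = 0.161). At months 2 and 3 the arms shared few G numbers, as given above.

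MiR-29c-3p had a lower mean in CM mice at each month from 1 to 6, with log2 fold changes between -0.80 and -0.28, but no single month passed the test (adjusted p from 0.0550 at month 2 to 0.803 at month 4 by edgeR). Its nearest approach was month 2, at 91.6 to 159 CPM (median 118.98) in 6 CM mice against 94.8 to 264 CPM (median 223) in 7 Ctrl mice, where 5 of the Ctrl mice lay above every CM mouse. There it passed by DESeq2 (-0.69, adjusted p = 0.0194, 21.4% of miRNAs called) and by edgeR with RLE size factors (-0.69, adjusted p = 0.0458, 14.3% called). MiR-29a-3p, which differs from it at 1 base, gave log2 fold changes of 0.27, -0.01, 0.02, -0.02, 0.17 and -0.37 at months 1 to 6, none past the test (adjusted p 0.396 to 0.982 by edgeR), and those of months 2, 3 and 4 turned sign under other settings. At month 1 its 7 CM mice spread from 12728 to 46568 CPM, around a Ctrl range of 20529 to 27671 CPM.

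MiR-29b-3p did not pass at any month in either table. On the deposited scale its medians were 795 (CM) and 841 CPM (Ctrl) at month 1, 693 and 720 CPM at month 2 and 695 and 677 CPM at month 3, and the groups overlapped at each. In the counts they were 278 and 624.9 CPM, 530.1 and 192 CPM, and 271 and 340.3 CPM. The count table gave log2 fold changes from -0.94 at month 1 to 0.74 at month 2, whereas reads recovered from the deposited CPM gave -0.41 and 0.09.

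**Figure D2:**
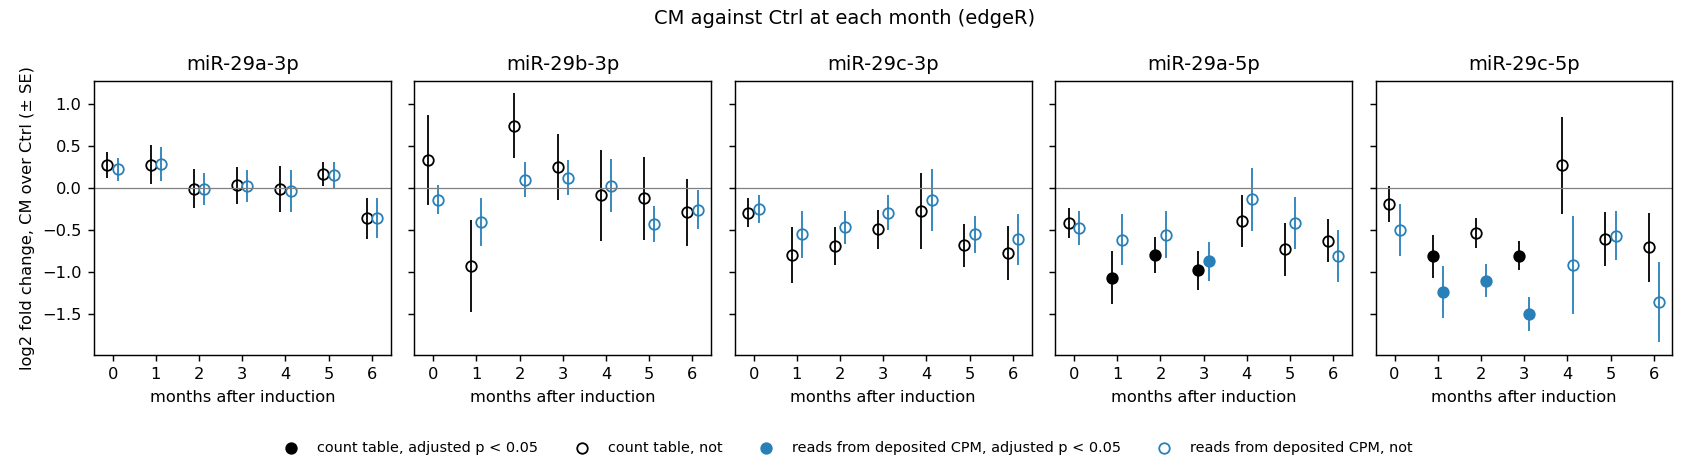
Log2 fold change of CM over Ctrl mice by month, with SE, for the 5 members, from the count table in black and from reads behind the deposited CPM in blue, with filled points where the adjusted p was below 0.05 in edgeR. The filled points are those of miR-29a-5p and miR-29c-5p at months 1 to 3, and the widest gap between the tables is that of miR-29c-5p at month 4 (0.26 against -0.92).

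**Figure D3:**
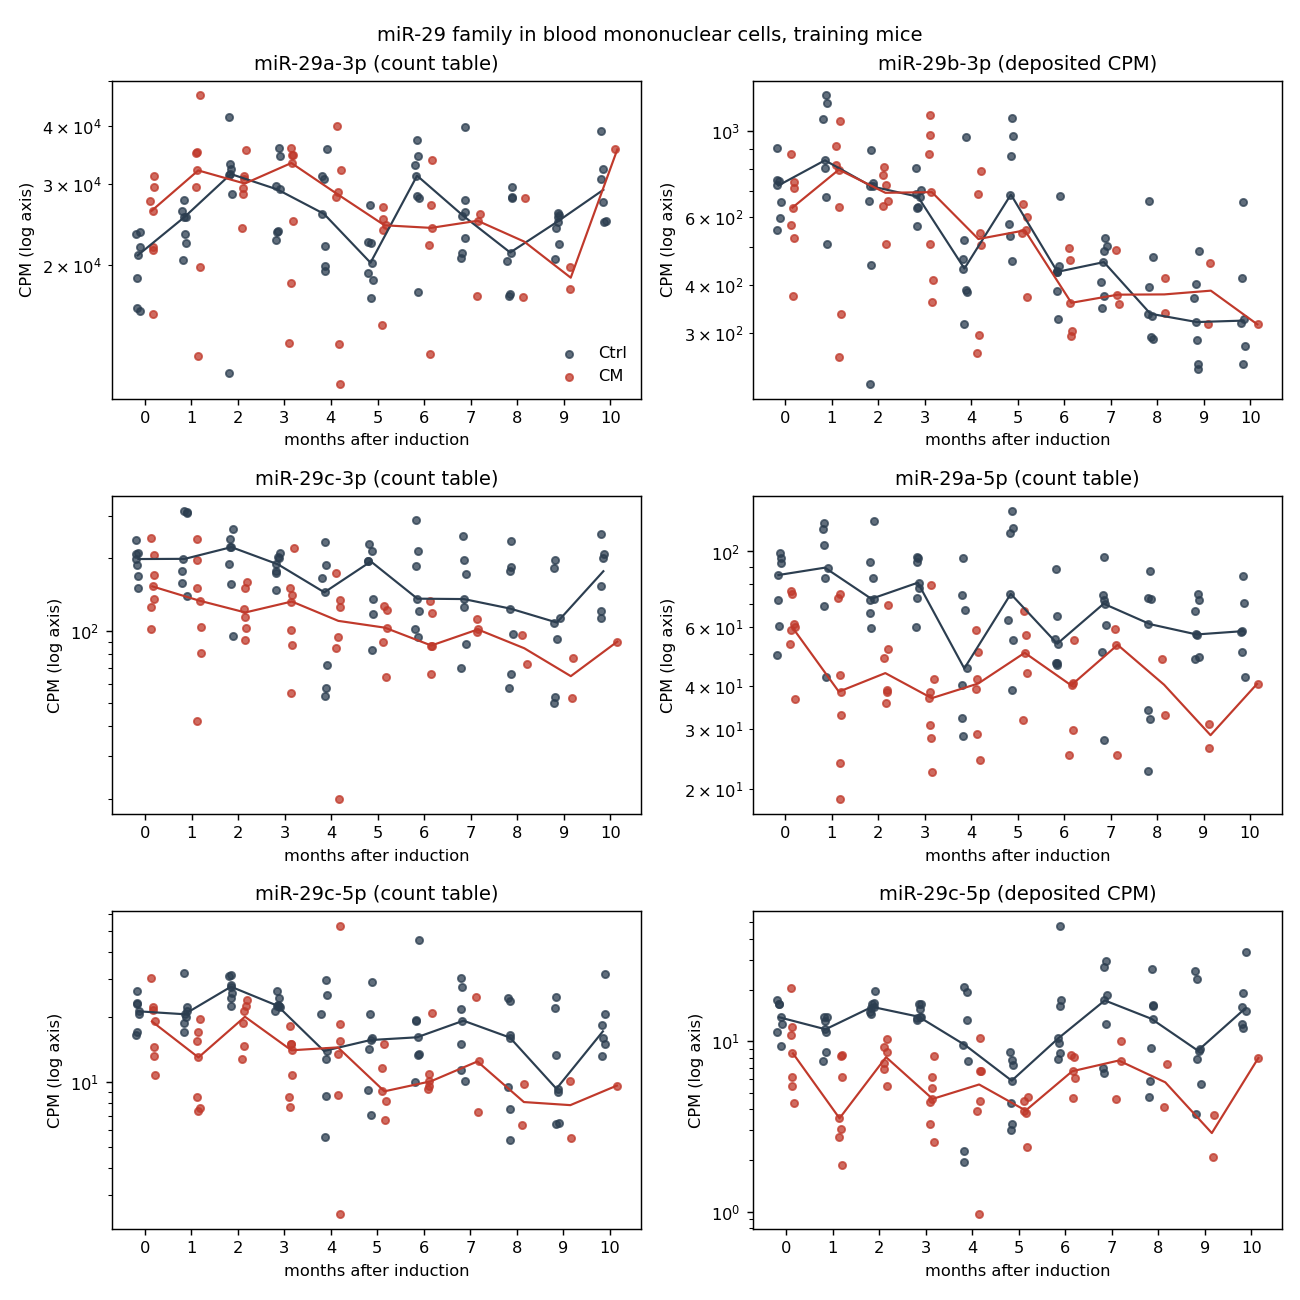
CPM per library (log axis) against months after induction in training mice, Ctrl in dark blue and CM in red, with lines joining the group medians and the 2 libraries labelled T6p5 left out. The CM median of miR-29c-3p and of miR-29a-5p lies below the Ctrl median at each month, whereas those of miR-29a-3p cross.

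Single months rest on few libraries, so each mouse was also given 1 value, its mean log2(CPM + 1) over months 1 to 6. This was compared between 7 CM and 7 Ctrl mice by an exact two-sided permutation test, with p adjusted over 15 such tests. MiR-29c-3p averaged 6.74 ± 0.33 (SD) in CM and 7.38 ± 0.20 in Ctrl mice, a difference of -0.64 or a level of 0.643 times that of Ctrl mice (exact p = 0.000583, adjusted 0.00291), and all 7 CM mice lay below all 7 Ctrl mice, by a narrow margin (highest CM mouse 7.061, lowest Ctrl mouse 7.066). In the deposited CPM 3 of the 7 CM mice lay below every Ctrl mouse. For miR-29a-5p the means were 5.35 ± 0.25 and 6.16 ± 0.20, a difference of -0.81 or 0.572 times (exact p = 0.000583, adjusted 0.00291), with no overlap between the arms in the counts and 6 of 7 CM mice below every Ctrl mouse in the deposited CPM. This p is the smallest that 7 mice against 7 can give. Of 608 miRNAs with a mean of at least 1 CPM, 4.44% had all CM mice below all Ctrl mice in the same average. MiR-29c-5p averaged 3.79 ± 0.35 and 4.34 ± 0.30, a difference of -0.55 or 0.681 times (exact p = 0.0035, adjusted 0.0105), with 6 CM mice below every Ctrl mouse.

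The other members did not pass this test. MiR-29a-3p averaged 14.63 ± 0.24 in CM and 14.66 ± 0.25 in Ctrl mice (exact permutation p = 0.851, adjusted 0.851), and the difference of -0.03 was smaller than the spread between mice. MiR-29b-3p averaged 8.05 ± 0.69 and 8.24 ± 0.26 (exact permutation p = 0.529, adjusted 0.618). In the deposited CPM the differences were -0.43 for miR-29c-3p (adjusted exact p = 0.0175), -0.55 for miR-29a-5p (0.00437), -0.97 for miR-29c-5p (0.00291), -0.12 for miR-29b-3p (0.559) and -0.01 for miR-29a-3p (0.963).

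The difference was present within sexes and within the libraries of 1 G number, which runs from G1 to G7. CM mice were 4 females and 3 males and Ctrl mice 2 females and 5 males. Within females the CM minus Ctrl difference was -0.35 for miR-29c-3p, -0.94 for miR-29a-5p and -0.17 for miR-29c-5p, and within males it was -0.86, -0.65 and -0.85. Within each of the 7 G numbers the libraries of months 1 to 6 had a lower CM mean for miR-29a-5p (-1.62 to -0.41) and for miR-29c-3p (-1.64 to -0.19), as did 6 of the 7 for miR-29c-5p (-1.05 to 0.32). In the deposited CPM the CM mean was lower within all 7 for each of these members. The smallest of those differences were -0.05 for miR-29a-5p, -0.06 for miR-29c-3p and -0.41 for miR-29c-5p. Ctrl mice of the codes CW, HW and WT overlapped, with miR-29a-5p means of 5.80 to 6.33 in CW, 6.29 to 6.31 in HW and 6.11 in the WT mouse.

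Marker miRNAs of blood cell types were summed for comparison, with no test. The summed level of 4 lymphocyte miRNAs was 27023 to 58215 CPM in the CM arm against 57084 to 97706 CPM in the Ctrl arm at month 3, and 19598 to 68914 against 35355 to 78388 CPM at month 1. Its median was lower in CM mice at each month from 0 to 5 (51268 against 69299 CPM at month 3) and higher at month 6 (39448 against 34718 CPM). The 5 erythroid miRNAs summed to 53345 to 621976 CPM in the CM arm against 28288 to 69644 CPM in the Ctrl arm at month 1. The 2 myeloid miRNAs summed to 5190 to 11770 and 4358 to 7260 CPM at month 3, and the 4 progenitor miRNAs to 10315 to 14204 and 10852 to 14356 CPM. No listed marker was at 0 in any library of these months. With the erythroid list taken out of the library totals the mouse means differed by -0.64 for miR-29c-3p, -0.81 for miR-29a-5p and -0.56 for miR-29c-5p (adjusted exact p = 0.00291, 0.00291 and 0.0105). The part of lymphocyte content in these values was not tested, and in whole blood mononuclear cells fewer cells of a type and less of a miRNA per cell cannot be told apart.

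Because some members had a lower CM mean already at month 0, each mouse's change from month 0 to its mean over months 1 to 6 was compared as well. MiR-29a-5p changed by -0.55 ± 0.55 (SD) in CM and -0.13 ± 0.28 in Ctrl mice, apart by -0.42 (exact permutation p = 0.0927, adjusted 0.161). MiR-29c-3p changed by -0.55 ± 0.44 and -0.22 ± 0.17 (exact permutation p = 0.0967, adjusted 0.161), and miR-29c-5p by -0.46 ± 0.68 and -0.11 ± 0.36 (exact permutation p = 0.278, adjusted 0.416). For miR-29a-3p the change was 0.06 ± 0.27 in CM and 0.38 ± 0.21 in Ctrl mice (exact permutation p = 0.0321, adjusted 0.0801). In the deposited CPM miR-29a-5p changed by -0.29 ± 0.43 in CM and -0.25 ± 0.18 in Ctrl mice, apart by only -0.04 (adjusted exact p = 0.915). There miR-29c-3p was apart by -0.14 (0.543), miR-29c-5p by -0.38 (0.413), miR-29a-3p by -0.21 (0.248) and miR-29b-3p by 0.06 (0.765). None of the 5 changes passed after adjustment on either scale. The lower levels of CM mice after induction were thus not shown to exceed the difference that each mouse started with.

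Ratios between members within a library do not depend on scaling. The log2 ratio of miR-29c-3p to miR-29a-3p was -7.90 ± 0.16 (SD) in CM and -7.29 ± 0.19 in Ctrl mice, which differed by -0.61 with no overlap (exact permutation p = 0.000583, adjusted 0.00291), and it was -0.42 in the deposited CPM (adjusted exact p = 0.00291). The log2 ratio of miR-29a-5p to miR-29a-3p, the 2 arms of 1 hairpin, was -9.31 ± 0.29 and -8.52 ± 0.36, a difference of -0.79 (exact permutation p = 0.00175, adjusted 0.00656) with 6 of 7 CM mice below every Ctrl mouse, and -0.57 in the deposited CPM (adjusted exact p = 0.00291). At month 0 the edgeR log2 fold changes were -0.30 for miR-29c-3p, -0.42 for miR-29a-5p and 0.27 for miR-29a-3p, none past the test. On reads recovered from the deposited CPM they were -0.25, -0.48 and 0.22. Both ratios thus leaned lower in CM mice before induction, and the change of a ratio from month 0 was not tested.

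The arms of miR-29c gave different answers in the 2 tables. The log2 ratio of miR-29c-5p to miR-29c-3p differed by 0.05 in the counts (exact permutation p = 0.759, adjusted 0.813) and by -0.66 in the deposited CPM (adjusted exact p = 0.00728). MiR-29b-3p to miR-29c-3p was higher in CM mice by 0.31 in the deposited CPM (adjusted exact p = 0.00699) and by 0.45 in the counts (exact permutation p = 0.0501, adjusted 0.107). MiR-29b-3p to miR-29a-3p differed by -0.16 in the counts and -0.11 in the deposited CPM, past the test in neither (adjusted exact p = 0.618 and 0.546).

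**Figure D4:**
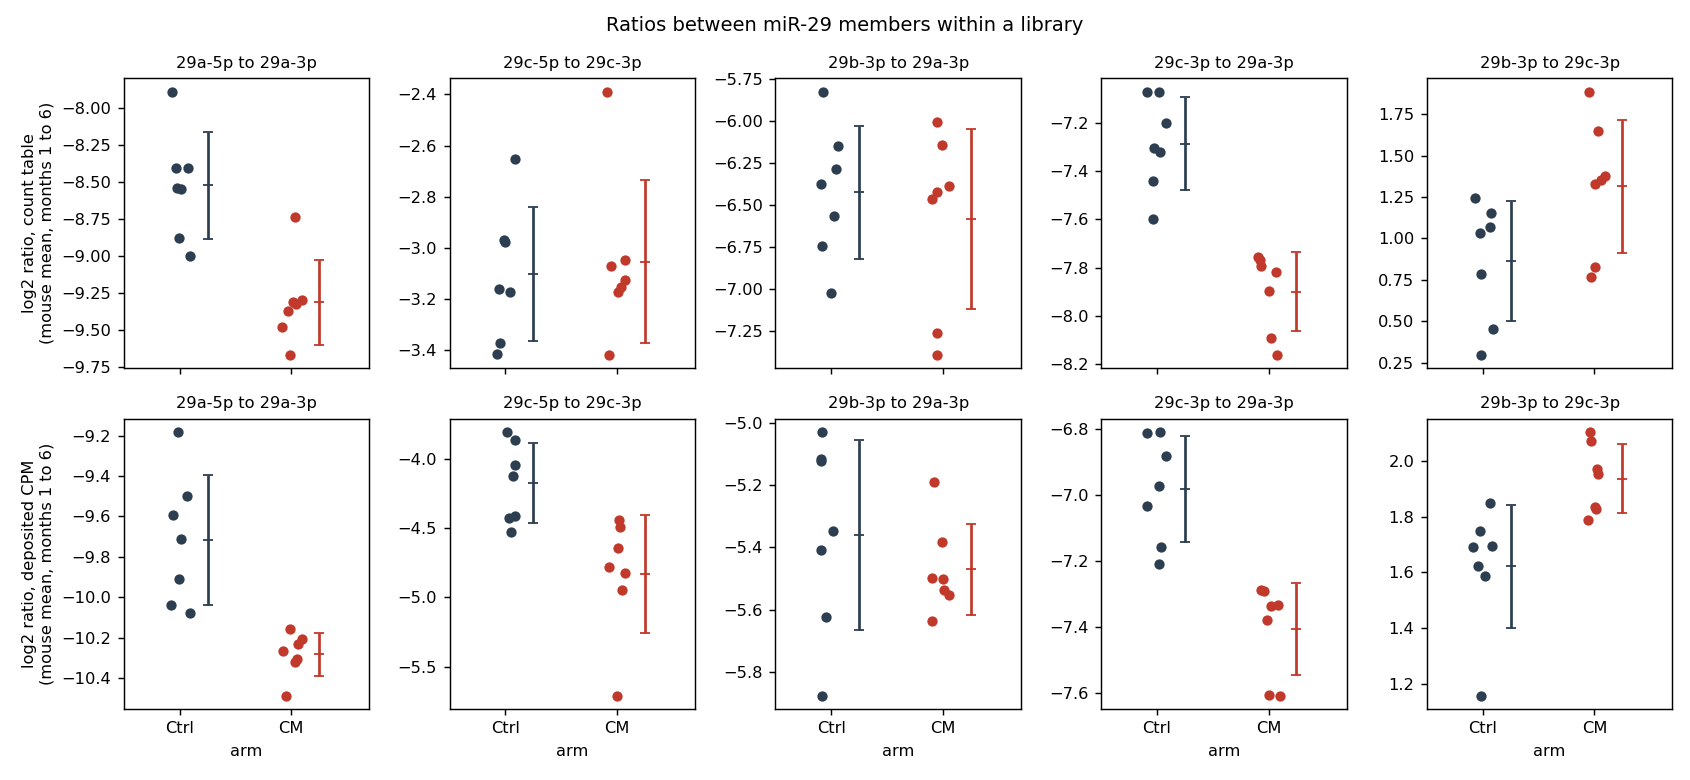
Mean log2 ratio between members per mouse over months 1 to 6, 7 Ctrl and 7 CM mice, with mean and SD beside the points, from the count table above and the deposited CPM below. The ratio of miR-29c-3p to miR-29a-3p has no overlap between arms in either table, whereas that of miR-29c-5p to miR-29c-3p has 5 of 7 CM mice below every Ctrl mouse in the deposited CPM and 1 of 7 in the counts.

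The last library of each CM mouse, taken between month 4 and month 10, was compared with month 0 of the same mice, in a fit that did not pair them. MiR-29a-5p fell in CM mice, from 36.7 to 76.4 CPM (median 59.7) at month 0 to 24.3 to 40.7 CPM (median 25.7) at the last library, and it was lower in 7 of 7 mice (6 of 7 in the deposited CPM). The log2 fold change was -0.87 (SE 0.20, adjusted p = 0.00459 by edgeR). MiR-29c-3p fell from 101.5 to 243 CPM (median 153) to 38.4 to 125.5 CPM (median 89.98), also in 7 of 7 mice, with a log2 fold change of -0.76 (SE 0.26, adjusted p = 0.0293 by edgeR), a call lost without mouse 3338 (-0.81) or 3357 (-0.72). These 2 of 5 members stand against 39.0% of 446 miRNAs called in this comparison, and 15.9% of the 446 called lower. With the mouse as a block both passed too, where 147 of 446 miRNAs were called. MiR-29a-5p then gave -0.85 and miR-29c-3p -0.78 (adjusted p = 0.0244 and 0.0276 by edgeR). MiR-29a-3p was lower in 4 of 7 mice (log2 fold change -0.20, adjusted p = 0.536 by edgeR), and miR-29c-5p in 3 of 7 (0.36, adjusted p = 0.508). On reads recovered from the deposited CPM, where 20.1% were called lower, miR-29b-3p passed at -0.62 (adjusted p = 0.0495 by edgeR), and it was lower in 7 of 7 mice on that scale. There miR-29a-5p (-0.65) and miR-29c-3p (-0.54) both had an adjusted p of 0.0582 by edgeR.

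Ctrl mice, in which the fusion gene was not induced, were compared in the same way, since time and its induction cannot be told apart within CM mice. Between month 0 and month 6 in 7 Ctrl mice, miR-29a-3p rose from 15908 to 23531 CPM (median 20990) to 17467 to 37334 CPM (median 31225), a log2 fold change of 0.60 (SE 0.19, adjusted p = 0.0372 by edgeR), as 20.5% of 474 miRNAs were called and 10.8% called higher. With the mouse as a block, the adjusted p was 0.0563, and the call was also lost without mouse 3335 (0.59), 3339 (0.55), 3346 (0.45) or 3350 (0.59). The others did not pass in the counts, at -0.43 for miR-29a-5p, -0.28 for miR-29b-3p, -0.20 for miR-29c-3p and -0.05 for miR-29c-5p. On reads recovered from the deposited CPM, where 21.9% were called, miR-29b-3p fell by 0.58 on the log2 scale (adjusted p = 0.0155 by edgeR), from a median of 724 CPM at month 0 to 432 CPM at month 6 (231 and 237 CPM in the counts).

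Beyond month 6 the CM arm thinned to 3 mice at month 7, 2 at months 8 and 9 and 1 at month 10, and no test was made. MiR-29a-5p overlapped between the arms at month 7 (25.1 to 58.97 CPM in CM mice against 27.8 to 96.6 CPM in Ctrl mice) and at month 8 (32.9 to 48.05 against 22.6 to 87.8 CPM). It lay at 26.4 and 31.1 CPM in the 2 CM mice at month 9 against 48.03 to 74.9 CPM in 7 Ctrl mice, which overlapped on the deposited scale (12.6 and 15.8 against 12.7 to 26.6 CPM), and at 40.7 CPM in 1 CM mouse at month 10 against 42.7 to 84.9 CPM in 6 Ctrl mice. MiR-29c-3p of CM mice lay within the Ctrl range at month 7 (98.7 to 111.7 in 69.98 to 248 CPM), month 8 (72.5 to 96.3 in 57.7 to 235 CPM) and month 9 (52.6 and 76.6 in 49.9 to 197 CPM). At month 10 it was 89.98 CPM in the CM mouse and 113.1 to 253 CPM in the 6 Ctrl mice. On the deposited scale miR-29b-3p of Ctrl mice had a median of 323 CPM at month 10, against 164 CPM in the counts.

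The members followed different miRNAs across libraries. Over the 53 CM and 76 Ctrl training libraries log2(CPM + 1) of miR-29c-3p correlated with that of miR-29a-5p at r = 0.74 and of miR-29c-5p at r = 0.74, but of miR-29a-3p at r = 0.53. MiR-29a-3p and its own opposite strand miR-29a-5p correlated at r = 0.30. Among 326 other miRNAs with a mean of at least 10 CPM, the closest to miR-29c-3p were miR-142a-3p, a miRNA of blood cells (r = 0.89), miR-500-3p (r = 0.85) and miR-1249-3p (r = 0.74). Those closest to miR-29a-3p were miR-181a-1-3p (r = 0.68), miR-1843a-3p (r = 0.65) and miR-361-3p (r = 0.64). For miR-29b-3p they were miR-342-3p, a lymphocyte marker (r = 0.58), miR-106a-5p (r = 0.55) and miR-3964 (r = 0.54). These are descriptions of libraries that share mice and sequencing depth.

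In the validation mice the family could be compared at the point labelled 5, where 6 CM and 6 Ctrl libraries held 1.65e+06 to 5.45e+06 reads. The deposited validation CPM were scaled over libraries of very unequal depth and are not on the scale of the training CPM, so levels are not compared between the cohorts. MiR-29a-3p made up 1.60% to 2.95% of the reads of these 12 libraries. Its CPM lay between 164345 and 409266 (median 359828) in CM and between 145325 and 331236 (median 241103) in Ctrl mice, and the groups overlapped. By limma on log2(CPM + 1) none of the 930 miRNAs tested was called (0.0%), 54 having an unadjusted p below 0.05, and none was called by edgeR on the recovered reads.

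The 3 members lower in the mouse means of the training cohort did not pass the test here. MiR-29a-5p ranged from 251 to 1164 CPM in the CM arm and 208 to 954 CPM in the Ctrl arm, a log2 fold change of 0.29 (SE 0.40). MiR-29c-3p ranged from 980 to 5572 and 1368 to 5440 CPM (0.02, SE 0.39), and miR-29c-5p from 7.34 to 167 and 62.3 to 157 CPM (-0.60, SE 0.56). Adjusted p by limma were 0.941 to 0.996 for the 5 members. The 95% intervals of these log2 fold changes, on 10 degrees of freedom, were -0.60 to 1.17 for miR-29a-5p, -0.84 to 0.89 for miR-29c-3p and -1.85 to 0.65 for miR-29c-5p. The training differences in the mouse means of miR-29c-3p (-0.64) and miR-29c-5p (-0.55) lie inside these intervals. The training difference of miR-29a-5p lies below its lower bound when taken from the counts (-0.81). From the deposited CPM, the kind of value the validation interval rests on, it was -0.55, close to the bound of -0.60. Limma's own test used more than 10 degrees of freedom, so its interval would be narrower. That narrower interval was not computed, so -0.55 was not placed against it. The training differences are means over several months after induction, whereas the validation values are from the point labelled 5, whose month is not given. By single months after induction the training log2 fold change of miR-29a-5p ran from -1.07 to -0.40 by edgeR on the counts. The bound of -0.60 lies within that range, so the interval cannot show that the validation mice lack the training difference. The log2 ratio of miR-29c-3p to miR-29a-3p, a test added after the values were seen, was -6.97 ± 0.46 (SD) in CM and -6.66 ± 0.39 in Ctrl mice (exact permutation p = 0.258, adjusted over 5 ratios 0.429), and that of miR-29a-5p to miR-29a-3p -9.28 ± 0.59 and -9.23 ± 0.42 (exact permutation p = 0.877, adjusted 0.877).

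**Figure D5:**
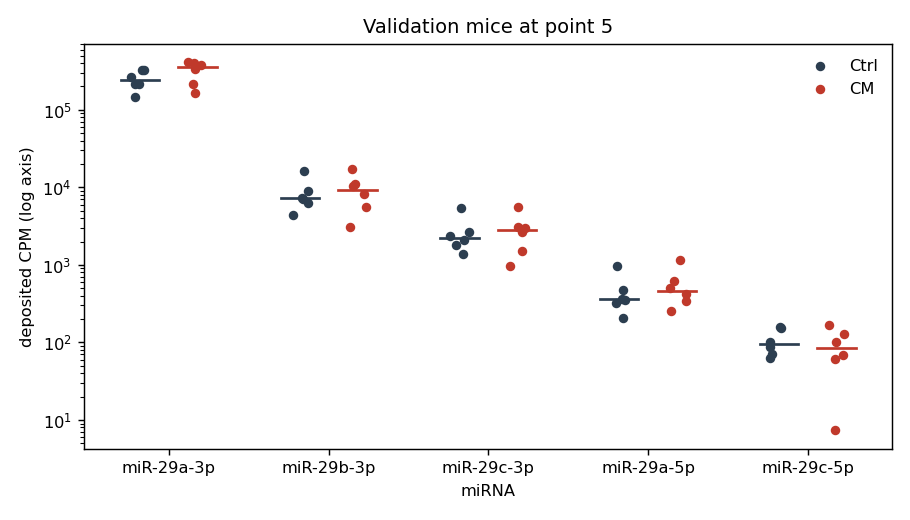
Deposited CPM (log axis) of the 5 members in 6 CM (red) and 6 Ctrl (dark blue) validation mice at point 5, with short lines at the medians. The arms overlap for each member, and 1 CM mouse lies at 7.34 CPM for miR-29c-5p, below the 62.3 CPM of the lowest Ctrl mouse.

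The other 90 validation libraries held 1744 to 76906 reads each and could not carry a comparison. MiR-29a-3p had at least 1 read in 85 of them and a median of 4 reads. The other members were above 0 in 32 libraries (miR-29b-3p), 29 (miR-29c-3p), 17 (miR-29a-5p) and 31 (miR-29c-5p), with at most 7 reads.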

How the data were processed

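Mature miRNA counts of 129 training libraries and CPM of the training and 102 validation libraries were used. The count values were deposited as whole numbers that the authors made with mirTOP. The deposited CPM signal was, per the labels, edgeR-normalized by the authors after trimming with cutadapt and alignment with Bowtie. The submitters' processing notes name GRCm38, and the methods name mm9. All CPM values above 0 were whole reads to within 0.02 reads (100.0%) once divided by what 1 read was worth.

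Training counts were tested by month with edgeR 4.0.16 (TMM scaling, filterByExpr, quasi-likelihood F-test, Benjamini-Hochberg over all miRNAs, threshold 0.05) in R 4.3.3, and validation point 5 with limma 3.58.1 on log2(CPM + 1) of miRNAs with at least 1 CPM. The CPM given for counts are TMM-scaled over all training libraries. Mouse means (log2(CPM + 1)), changes and ratios (counts + 0.5) were compared with scipy 1.17.1 by exact permutation. The 2 libraries labelled T6p5 were left out of months 1 to 6. Alternatives included DESeq2 1.42.0. The fits were tested on simulated data. The edgeR fit on reads recovered from the training CPM was added after the data were seen and called 147, 107 and 125 miRNAs at months 1 to 3, against 130, 65 and 100.

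Replicate numbers are mouse numbers, so libraries of 1 mouse pair across months. Deviations from the group means correlated between the paired libraries at -0.18 to 0.15 over 14 mice. Named miRNAs were the 5 members, the other miR-29b arms and the 3 closest in pattern to each 3p strand. The members and lists were chosen with earlier results of these data known. No columns of other samples were left out.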

Additional observations from a re-analysis of the deposited data

Results flagged for a closer look

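Within groups of 4 to 10 libraries, 9 of 100 groups tested had a library standing apart from its group on the log2 scale, where chance gives about 1 in 20. MiR-29a-3p of the Ctrl mouse 3349 was low at 2 months, at 11650 CPM at month 2 (the other Ctrl mice 28497 to 41929) and at 17467 CPM at month 6 (27876 to 37334), and the deposited CPM gave 9623 and 17560. The month 2 library of that mouse had the smallest total count of the training set, 1.79281e+06. MiR-29a-3p of the CM mouse 3341 was low at month 5, at 14817 CPM against 23841 to 26645. MiR-29b-3p of the CM mouse 3338 was low at month 2, at 179 CPM against 472 to 542 in the counts, and at 510 against 641 to 809 CPM in the deposited table. MiR-29c-3p of the CM mouse 3334 was low at month 4, at 19.9 CPM against 84.7 to 174. MiR-29c-5p was high in the Ctrl mouse 3342 at month 1 (32.1 CPM against 17.0 to 22.3) and at month 6 (45.8 against 10.0 to 19.4), and in the CM mouse 3341 at month 6 (20.98 against 9.34 to 10.97). The deposited CPM of the first and the last of these 3 libraries, 11.8 and 8.14, lay within the range of their groups, whereas the month 6 library of mouse 3342 stood apart there too, at 47.8 against 7.87 to 17.4. MiR-29c-5p of the validation CM mouse 2718 was low at point 5, at 7.34 CPM from 2 reads against 61.1 to 167.

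The validation point labelled L was in no comparison and holds CM libraries and no Ctrl library. MiR-29a-3p was above the limit that a count of 0 allows (3 reads) in 3 of 5 of its libraries, at 131.6 CPM in mouse 2690 (5 reads), 199 CPM in mouse 2708 (7 reads) and 135.04 CPM in mouse 2719 (8 reads). The other 4 members had at most 3 reads in these libraries.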

How the results depend on the processing

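The comparisons are limited by 5 to 7 CM mice a month, by the few counts of the 5p strands, and by 2 countings that disagree for miR-29b-3p and for the 5p strands. The sizes of the miR-29c-3p and miR-29a-5p mouse means, of miR-29c-5p, and of the ratios of miR-29c-3p and miR-29a-5p to miR-29a-3p kept their direction and stayed past the exact test in all alternatives run, the omission of each mouse included. RLE size factors moved the median of all miRNAs by at most 0.10 (log2, month 1).

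The number of members called at month 1 was 1 with all training libraries in 1 fit (with or without the G number), without a filter, on recovered reads, by limma on the deposited CPM and with sex as a covariate, and 0 with the G number within the month. At month 2 the number of members called was 3 by DESeq2, 2 with RLE size factors, and 0 with all libraries, all libraries and the G number, no filter, or the G number. Of these fits DESeq2 called 21.4% of all miRNAs, RLE 14.3%, all libraries 6.26% and the G number 0.0%. All libraries with the G number called 42 of 815 and no filter 42 of 1596. At month 3 the number of members called was 1 with all libraries (with or without the G number) and 0 with the G number. All libraries called 78 of 815 miRNAs (62 with the G number), and the G number within the month 6 of 455. At month 5, 1 member was called (miR-29c-3p, -0.89, adjusted p = 0.0378 by edgeR) without mice 3334 and 3335, whose running numbers in the titles change series at month 6. That fit called 53 of 511 miRNAs. In the last libraries 1 member was called on recovered reads, where 204 of 453 miRNAs were called. In Ctrl mice it was 2 on recovered reads, and 0 without a filter, without mouse 3335 of that pair, and with the replicate block, under which miR-29a-3p gave 0.57 (adjusted p = 0.0563 by edgeR). The block left 2 members called in the last CM libraries and changed no other call. The fit with the G number could not be made at month 4. The cause of these changes was not tested.

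Without single mice the number called was 0 to 3 at months 1 and 2, 2 to 3 at month 3, 0 to 1 at month 5, 1 to 2 in the last libraries and 0 to 2 in Ctrl mice, and 0 throughout at months 4 and 6 and in the validation mice. At month 1, miR-29a-5p did not pass without mouse 3336 (-0.91), and miR-29c-5p without 3336 (-0.76), 3338 (-0.70), 3342 (-0.68), 3350 (-0.81), 3357 (-0.72) or 3368 (-0.73). At month 2, miR-29a-5p did not pass without 3338 (-0.71), 3341 (-0.70), 3357 (-0.74) or 3368 (-0.79), whereas miR-29c-3p passed without 3336 (-0.73), 3340 (-0.73) or 3349 (-0.81) and miR-29c-5p without 3349 (-0.56). MiR-29c-3p passed at month 1 without 3341 (-1.01), at month 3 without 3336 (-0.68) and at month 5 without 3335 (-0.84). At month 3, miR-29a-5p and miR-29c-5p passed without each of the 14 mice. In the last libraries miR-29c-3p did not pass without 3338 (-0.81) or 3357 (-0.72). In Ctrl mice miR-29a-3p did not pass without 3335 (0.59), 3339 (0.55), 3346 (0.45) or 3350 (0.59), and miR-29a-5p passed without 3342 (-0.69).

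Among the mouse values, the change of miR-29a-3p passed with all months after induction (-0.37, adjusted exact p = 0.0425) and without mouse 3334 or 3370 (range without single mice -0.38 to -0.26). The change of miR-29a-5p passed without mice 3334 and 3335 (-0.59, adjusted exact p = 0.0271) and without 3334 (-0.57, range -0.57 to -0.28). It shrank to -0.038 in the deposited CPM (adjusted exact p = 0.915). The ratio of miR-29b-3p to miR-29c-3p passed in the deposited CPM (0.31), with all months (0.75) and without 3334 (range 0.36 to 0.54). Direction turned for the mean of miR-29b-3p (0.16) and its ratio to miR-29a-3p (0.24) with all months, for its change in the deposited CPM (0.061), and for the ratio of miR-29c-5p to miR-29c-3p in the deposited CPM (-0.66, past the test). Without single mice the mean of miR-29a-3p ran from -0.12 to 0.024 and the ratio of miR-29c-5p to miR-29c-3p from -0.061 to 0.12.

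Other values that turned sign were not called. MiR-29a-3p turned at month 2 to 0.085 (all libraries with G number), 0.012 (no filter), 0.055 (erythroid list removed), 0.11 (limma), 0.18 (sex) and 0.077 (G number), at month 3 to -0.049 (all libraries), -0.16 (with G number), -0.00432 (DESeq2, and RLE size factors alike), -0.037 (no filter), -0.089 (limma) and -0.59 (G number), and at month 4 to 0.00106 (no filter), 0.10 (without 3334 and 3335) and 0.014 (sex). MiR-29b-3p turned at month 0 to -0.15 (recovered reads), -0.18 (limma) and -0.27 (G number), at month 3 to -0.040 (limma) and -1.13 (G number), at month 4 to 0.39 (without 3334 and 3335), 0.023 (recovered reads) and 0.030 (limma), at month 6 to 0.39 (G number), and in Ctrl mice to 0.067 (replicate block). MiR-29c-3p turned at month 4 to 0.17 (without 3334 and 3335). MiR-29c-5p turned at month 4 to -0.92 (recovered reads), -0.69 (limma) and -0.15 (sex), in the last libraries to -0.64 and in Ctrl mice to 0.35 (both recovered reads). Without single mice, miR-29a-3p ran from -0.15 to 0.083 at month 2, -0.055 to 0.15 at month 3 and -0.20 to 0.091 at month 4. MiR-29b-3p ran from -0.16 to 0.48 at month 3, -0.49 to 0.12 at month 4, -0.35 to 0.084 at month 5, -0.42 to 0.061 in Ctrl mice and -0.16 to 0.33 in the validation mice. MiR-29c-3p ran from -0.22 to 0.28 in the validation mice, and miR-29c-5p from -0.55 to 0.53 at month 4, -0.098 to 0.56 in the last libraries and -0.44 to 0.089 in Ctrl mice.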

Other observations

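In the deposited CPM miR-29b-3p correlated with miR-29c-3p at r = 0.73 over the training libraries (53 CM and 76 Ctrl), against r = 0.41 in the counts.

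The 2 libraries labelled T6p5, from the CM mice 3334 and 3336, belong to no monthly comparison. MiR-29a-3p was at 17606 and 11742 CPM, miR-29c-3p at 38.4 and 48.4 CPM, miR-29a-5p at 25.7 and 10.5 CPM, and miR-29c-5p at 10.2 and 8.37 CPM.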
